A study of Mus musculus with 4 samples.

Results

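Semaphorins, plexins and Eph receptors are 4 families of axon guidance genes by symbol (Sema, Plxn, Epha and Ephb), and 7 of their members carried IMP2 clusters in embryonic mouse brain: Sema3a, Sema5a, Sema6a, Sema6d, Plxna2, Epha3 and Epha5. Every gene of the deposited list whose symbol begins with one of these names was taken, and lines that repeat a cluster for several transcripts were reduced to 1. This left 9 clusters of the 1828 in the list, in 7 of its 761 genes. Within these families no measured value beyond presence in the list decided which genes were taken. The families themselves were chosen with earlier results of these data known. The list came from HITS-CLIP, in which ultraviolet light joins a protein to the RNA it touches, an antibody pulls the protein down and the attached RNA fragments (tags) are sequenced. The protein was IMP2, encoded by Igf2bp2, and the tissue was whole brain of Swiss Webster embryos at E14, which holds many cell types; no mutation or treatment is named. The 4 libraries, 2 with M and 2 with R in their titles, are represented by 1 common list. Mouse and rabbit antibodies to IMP2 were used, but the labels do not tie the letters to them.

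Semaphorins are secreted or membrane-bound guidance cues that mostly repel growth cones, and plexins are their signalling receptors, alone or together with neuropilins. Eph receptors are tyrosine kinases of the growth cone membrane that bind ephrins on neighbouring cells and set up topographic maps. IMP2 belongs to the IGF2BP proteins, which bind mRNAs, largely in 3' UTRs, and affect their transport, stability and translation. Semaphorins that span the membrane can also act as receptors themselves, so the division into ligands and receptors used below follows the family name only.

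The labels were checked against marker genes. Of 8 neuron markers 6 were listed, of 8 neural progenitor markers 2, of 8 skeletal muscle markers 0 and of 7 liver markers only Ttr, which is also a choroid plexus gene. Among all 21900 protein-coding genes 3.47% were listed. At so low a share, few or no listed markers in lists this short do not show that a tissue was absent. Of 6 erythroid markers 3 were listed (Hba-a1, Hba-a2 and Hbb-y), but with only 2 distinct clusters, since Hba-a1 and Hba-a2 share 1. None of the values below has a replicate error, because no column belongs to a single library, and no control library or RNA abundance was analysed here. The height of a cluster (a deposited signal, read as the largest number of overlapping tags) can therefore not be told apart from the amount of its transcript in the tissue.

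The semaphorins contributed 5 clusters in 4 genes, all low to moderate in height. Sema6a, a membrane-bound ligand of A-type plexins, had the tallest of them, with a height of 31 and a fold of 12.2. The fold is the authors' ratio of the height to a level that the header does not define. The Sema6a cluster lay on chromosome 18 at 47405866 to 47405918 (mm9, minus strand), and 43.3% of the clusters in the list were taller. Only 2.63% of them had a higher fold, which made it the member nearest the top of the list on that scale.

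Sema6d, a membrane-bound semaphorin that signals through plexins, was the only ligand with 2 clusters. They lay 837 bases apart on chromosome 2, at 124491355 to 124491393 and 124492231 to 124492264 (plus strand). Both had a height of 23, while their folds were 8.21 and 5.15. The list gives each of them for 5 RefSeq transcripts that share the same 3' UTR interval, and they were counted once.

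Sema5a, a membrane protein with thrombospondin repeats, had a single cluster on chromosome 15 at 32624950 to 32624994 (plus strand), with a height of 22 and a fold of 5.35. Sema3a, a secreted repellent received by neuropilin and A-type plexins, had 1 cluster of height 20 on chromosome 5 at 13600367 to 13600405 (plus strand). The Sema3a cluster was among the shortest of the list, with 91.4% of clusters taller, but its fold of 10.8 was exceeded by only 4.54%. Height and fold thus placed the same site near opposite ends of the list.

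The receptors contributed 4 clusters in 3 genes and held both the tallest and the joint lowest site of the 9. Plxna2, a receptor for Sema6a and, with neuropilins, for secreted semaphorins, had 2 clusters on chromosome 1 (plus strand), separated by 1323 bases. The distal one, at 196641976 to 196642052, reached a height of 44 and a fold of 6.68, and 16.1% of all clusters were taller. The proximal one, at 196640589 to 196640652, had a height of 27 and a fold of 7.18. The order of the Plxna2 sites therefore depended on the scale: the distal one was 1.63 times as tall, and the proximal one had the higher fold.

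Both Eph receptor genes had a single low cluster. Epha5, a receptor for ephrin-A ligands in the mapping of axons, was found on chromosome 5 at 84483964 to 84483994 (minus strand) with a height of 21 and a fold of 8.08. Epha3, a receptor of the same class, was found on chromosome 16 at 63545103 to 63545152 (minus strand) with a height of 20 and a fold of 7.48. The lowest height anywhere in the list was 18, so Epha3, Epha5 and Sema3a stood only 2 or 3 tags above the lowest value listed.

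By height, ligand and receptor clusters could not be separated. The 5 semaphorin clusters had a median height of 23 (range 20 to 31), and the 4 receptor clusters a median of 24 (range 20 to 44). The upper end of the receptor range rested on Plxna2 alone, without which the 2 remaining receptor clusters had a median of 20.5. Median folds were 8.21 for the semaphorins (range 5.15 to 12.2) and 7.33 for the receptors (range 6.68 to 8.08), and median widths were 39 and 57 bases. The ranges overlapped in all 3 measures. These figures were not tested, since clusters of 1 gene share their source and genes are not replicates of a condition.

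**Figure D1:**
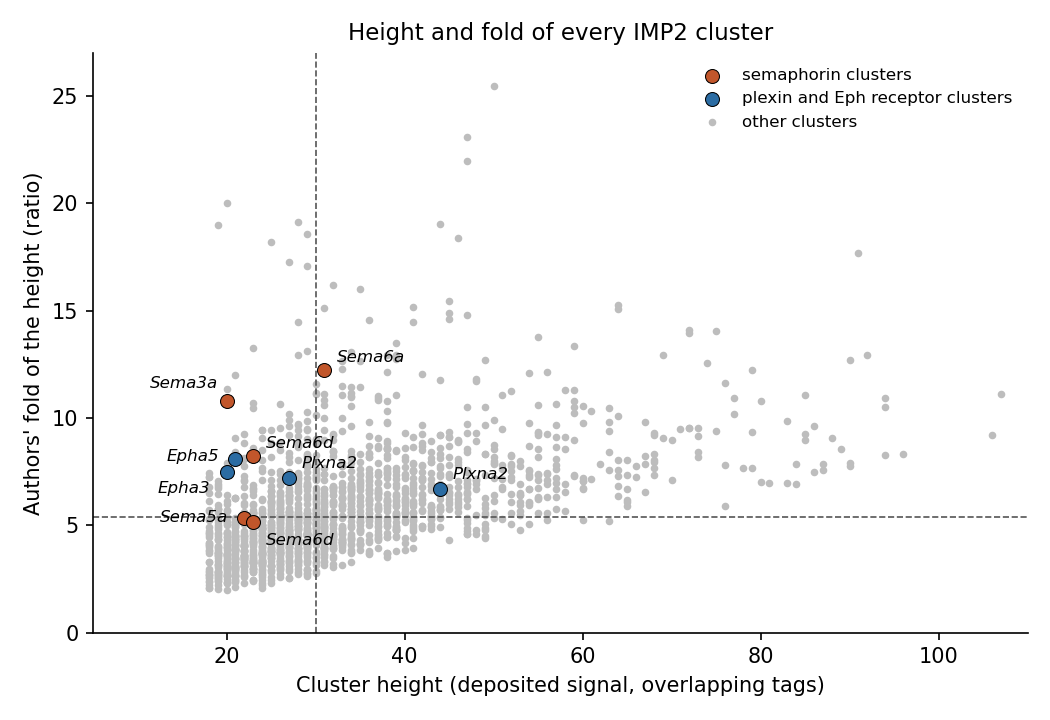
Height of each cluster (x axis, deposited signal) against the authors' fold of that height (y axis, ratio) for the 5 semaphorin clusters, the 4 plexin and Eph receptor clusters and the other 1819 clusters of the list, with dashed lines at the medians of the whole list (30 and 5.4). Of the 9 named clusters, 7 lie left of the median height and 7 lie above the median fold.

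Against the rest of the list, the 9 clusters were short but had folds mostly above its median. Their median height was 23 (range 20 to 44), against 30 for the other 1819 clusters (range 18 to 107). Only the Sema6a cluster and the distal Plxna2 cluster exceeded the list's median height of 30, which 46.9% of all clusters did. On the fold scale the median was 7.48 against 5.4 for the other clusters, and 7 of the 9 were above the list's median fold, which 49.9% of all clusters were. The exceptions were Sema5a and the distal cluster of Sema6d. The 9 clusters were also somewhat narrower, with a median width of 45 bases (range 31 to 77) against 53 bases for the others.

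The height divided by the fold gives the level that the authors' ratio implies as its denominator, and for these genes it was low. It was 1.85 for Sema3a, 2.54 for Sema6a, 2.60 for Epha5, 2.67 for Epha3 and 2.80 for the proximal Sema6d cluster. Between 0.547% and 3.50% of all clusters had a lower value than these 5. The proximal Plxna2 cluster (3.76), Sema5a (4.11) and the distal Sema6d cluster (4.47) were also under the lower quartile of the list, 4.81, and only the distal Plxna2 cluster (6.59) was above the list's median of 5.96. Values were also low among clusters of height 23 or less. The 6 clusters of Sema3a, Sema5a, Sema6d, Epha3 and Epha5, with heights of 20 to 23, had a median of 2.74. The other 368 clusters, with heights of 18 to 23, had a median of 5.40. At similar heights this restates the fold, whose medians in the same clusters were 7.78 and 3.895. No source used here says what the denominator measures. Across listed genes it was higher in those with many clusters, with a median of 7.19 in the 37 genes with at least 8 clusters and 5 in genes with 1 (Spearman correlation of 0.33 over 761 genes with the number of clusters, as a description).

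All 9 clusters lay in 3' UTRs, with both ends inside the deposited interval (100%, exact Clopper-Pearson 95% interval 66.4 to 100, for counting error only), as did 94.1% of all clusters by their midpoint. No other listed cluster fell over any of these 7 intervals on either strand, and each interval runs to the end of its transcript. Distances below are measured to the cluster's midpoint from the 5' end of that interval, which is the stop codon unless an intron splits the 3' UTR.

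The Eph receptor clusters sat close to the 3' end of their transcripts. In Epha5 the midpoint was 95.5% of the way along a 3' UTR interval of 4279 bases, and the cluster's edge was 176 bases from the end. In Epha3 it was at 90.8% of an interval of only 913 bases, with 59 bases left beyond the cluster. By midpoint, these were the only members in the last 200 bases, which held 10.6% of all 3' UTR clusters. The Plxna2 clusters lay further inside, at 48.1% and 77.7% of 4707 bases.

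Semaphorin clusters were spread over the 3' UTR. None of the 9 member clusters, ligand or receptor, lay in the first 200 bases. Over all 3' UTR clusters the lower quartile of the distance from the start was 474.5 bases. The proximal Sema6d cluster was nearest to the start, 328.5 bases in (13.3% of 2461 bases), and its second was at 48.8%. Sema3a followed at 26.4% of 2968 bases and Sema6a at 68.5% of 3129 bases. Sema5a had the longest 3' UTR interval of the 7, with 6926 bases, and its cluster lay at 83.8%. The median position was 48.8% for the semaphorins and 84.3% for the receptors, with ranges of 13.3 to 83.8% and 48.1 to 95.5% that overlapped. For all members it was 68.5%, against 48.2% for the other 1712 clusters in 3' UTRs. With 9 clusters in 7 genes this was left as a description.

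**Figure D2:**
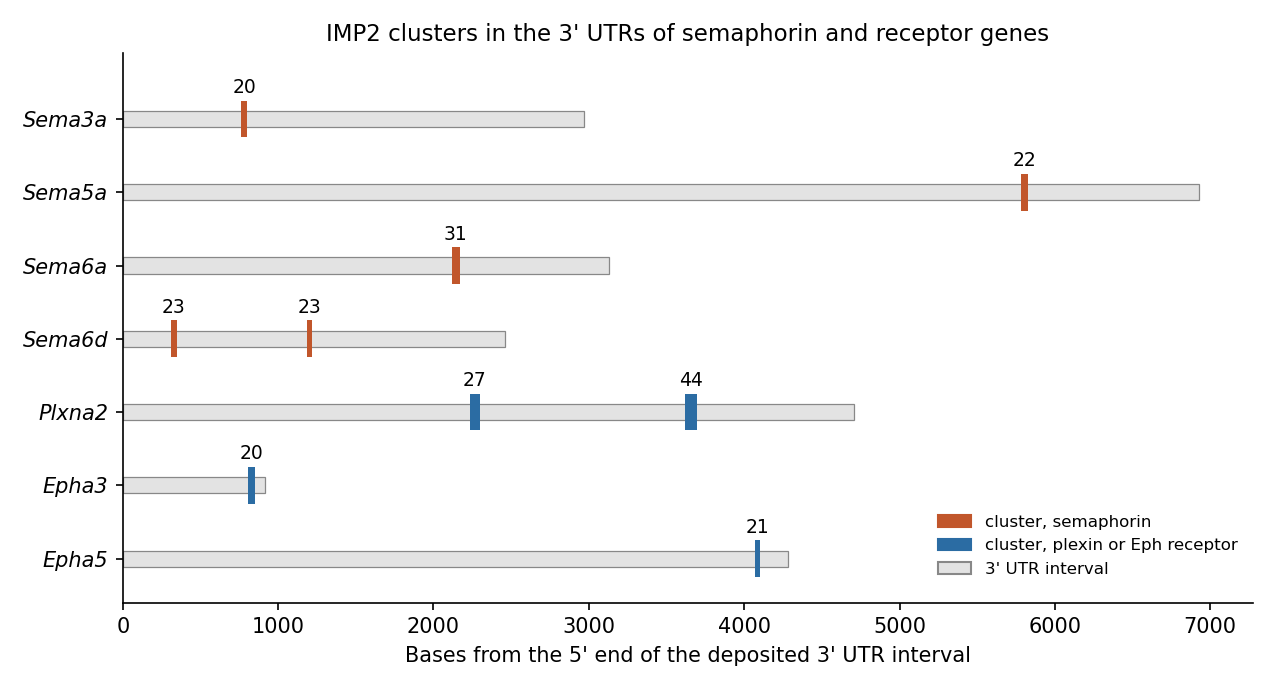
The deposited 3' UTR interval of each of the 7 genes (grey bar, x axis in bases from its 5' end) with its IMP2 clusters drawn to scale and labelled with their heights. The midpoints of the Epha3 and Epha5 clusters lie within 200 bases of the 3' end, whereas those of the 5 semaphorin clusters lie between 13.3% and 83.8% of the interval.

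The clusters took up little of these 3' UTRs. Covered shares were 0.65% in Sema5a, 1.31% in Sema3a, 1.69% in Sema6a and 2.97% in Sema6d, and 0.724% in Epha5, 3.00% in Plxna2 and 5.48% in Epha3. All but Epha3 were below the median of 4.70% over the 729 listed genes with a 3' UTR interval. A single cluster was held by 5 of the 7 genes, as by 55.1% of all listed genes, and none of the 7 had more than 2.

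Long transcription units were a further shared feature. The genomic span of the transcript was 452 kb for Sema5a, 203 kb for Sema3a, 124 kb for Sema6a and 57.5 kb for Sema6d. For the receptors it was 363 kb in Epha5, 319 kb in Epha3 and 197 kb in Plxna2. The median was 203 kb, against 39.7 kb for the other 754 listed genes, and 6 of the 7 (all but Sema6d) exceeded the upper quartile of the list, 91.9 kb. Among the other guidance receptors this held for 4 of 6, with a median of 272 kb. The 3' UTR intervals were longer than the list's median of 1998 bases in 6 of the 7, with Epha3 as the exception. Across all 761 listed genes, span and the height of the highest cluster had a Spearman correlation of -0.02. Span and the gene's median implied denominator had one of -0.199. Both are descriptions across genes, which are not independent replicates.

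**Figure D3:**
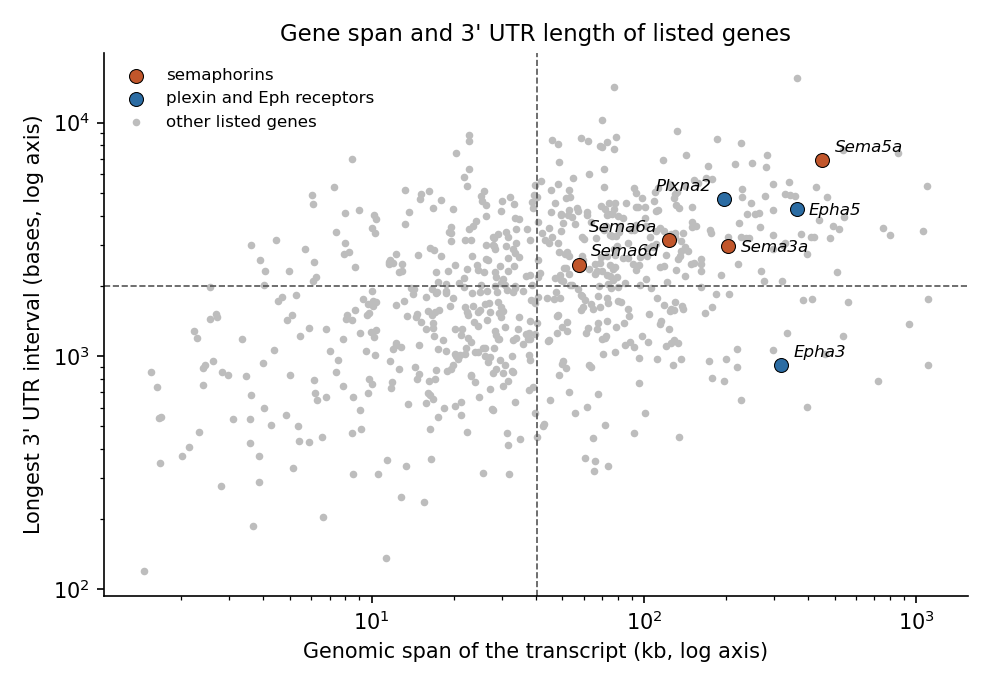
Genomic span of the transcript (x axis, kb, log axis) against the longest deposited 3' UTR interval (y axis, bases, log axis) for the 4 semaphorins, the 3 receptors and the other listed genes that have such an interval, with dashed lines at the medians of the list. All 7 named genes lie right of the median span, and Epha3 alone, with 913 bases, lies below the median 3' UTR length.

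Most genes of the families had no cluster in the list. Of 43 protein-coding genes of the 4 families 7 were listed (16.3%, exact 95% interval 6.81 to 30.7). Among all 21900 protein-coding genes the share was 3.47%. The semaphorins had 4 of 20 (20%, interval 5.73 to 43.7), plexins 1 of 9 (11.1%), EphA receptors 2 of 9 (22.2%) and EphB receptors 0 of 5 (interval 0 to 52.2). The 16 unlisted semaphorins included all of the Sema4 genes as well as Sema7a, Sema5b, Sema6b and Sema6c. Among receptors, Plxna1, Plxna3, Plxna4 and all B-, C- and D-type plexins were absent, as were Epha4 and Epha7. At least 2 clusters were held by 2 of the 43 (Sema6d and Plxna2; 4.65%), against 1.56% of all protein-coding genes. A cluster taller than the list's median was held by Sema6a and Plxna2 (4.65%), against 1.87% of all protein-coding genes. These shares carry no test, and the part of transcript abundance in whether a gene is listed was not tested. The families, like the gene lists below, were chosen with earlier results of these data known. Their shares are therefore no measure of enrichment, and the intervals stand for counting error only.

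The partners of these proteins at the membrane had 1 listed gene in each of their lists. Of 8 ephrin genes, which encode the ligands of Eph receptors, Efnb2 was listed (12.5%, beside 3.47% of all protein-coding genes), with 1 cluster at the lowest height of the list (18, fold 4.07). The ephrin-A genes, which encode the ligands of Epha3 and Epha5, had none. Of 9 co-receptors of semaphorin signalling the adhesion molecule gene Chl1 was listed (11.1%), with 4 clusters and a highest height of 34. Neither neuropilin gene (Nrp1, Nrp2) was in the list.

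Inside the cell, several genes that act below plexins carried taller clusters than most of the semaphorins and receptors. Of 26 semaphorin effectors 6 were listed (23.1%, beside the 3.47% of all protein-coding genes), with a median highest cluster of 40 (range 20 to 96), against 22 for the 7 members (range 20 to 44). Dpysl2, the collapsin response mediator through which Sema3a acts on microtubules, had 10 clusters and a height of 96. The small GTPase gene Rhob reached 43, Dpysl5 41 and the kinase gene Gsk3b 39 with 8 clusters. The small GTPase gene Rac1 (25) and Crmp1 (20), another collapsin response mediator, were in the range of the members.

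Of 26 genes that act with Eph receptors 5 were listed (19.2%, beside the same 3.47%): the adaptor gene Grb10 (63, 6 clusters), the ephrin-cleaving protease gene Adam10 (51, 3 clusters), Cdc42 (29), Src (22) and the cytoskeletal kinase gene Rock2 (19). The Eph list had a median of 29. Rock2 was lower than each of the 7 members, and Grb10 and Adam10 were higher than each of them.

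Guidance genes of other families also had taller clusters than most of the 7. Of 16 other guidance receptors 6 were listed (37.5%, beside 3.47% of all protein-coding genes), with a median highest cluster of 39 and a range of 22 (Neo1) to 67 (the netrin receptor gene Dcc), beside heights of 44, 21 and 20 for Plxna2, Epha5 and Epha3. Plxna2 equalled Ptprs (44) and stood above Robo2 (34) and Robo1 (31). Of 11 other guidance ligands the list held 2 (18.2%), Reln (46) and Rgma (33), both above Sema6a, the highest semaphorin at 31. The Rgma cluster did not lie in a 3' UTR, unlike those of the members. In the other guidance receptors the implied denominator had a median of 5.96 over 41 clusters (27 of them in Fzd3), against 2.80 over the 9 clusters of the members. Low values were not limited to the members: of the 12 clusters of the Eph effectors 5 were under the list's lower quartile (lowest 2.49), as was the Efnb2 cluster (4.42), and so were 5 of the 41 clusters of the other guidance receptors.

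**Figure D4:**
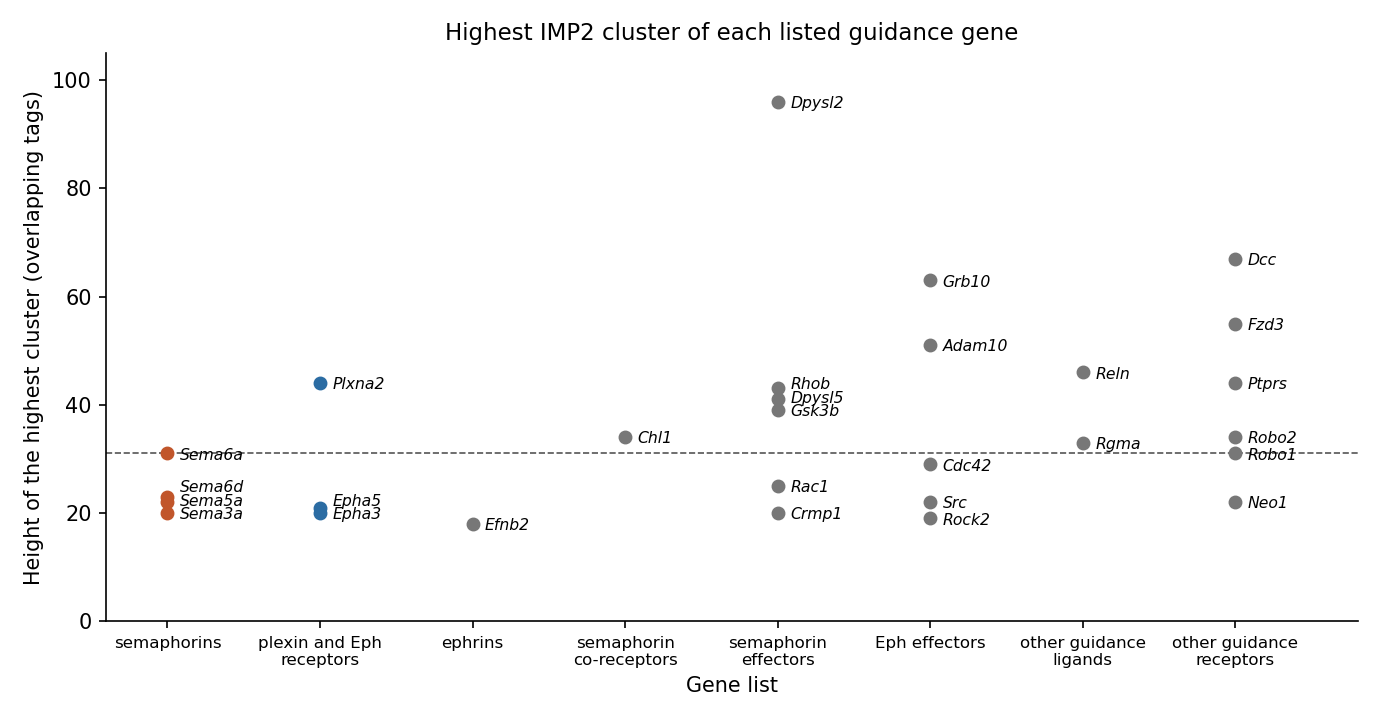
Height of the highest IMP2 cluster (y axis, deposited signal) of each listed semaphorin, plexin and Eph receptor gene and of each listed gene in 6 further lists of the same pathways or of other guidance families (x axis), with a dashed line at the median over all listed genes (31). Of the 7 members only Plxna2 (44) lies above the line and Sema6a (31) lies on it, while Dpysl2 (96), Dcc (67) and Grb10 (63) are the tallest of their lists.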

How the data were processed

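Tags were produced by HITS-CLIP of IMP2 with benzonase digestion, per the labels' protocols. Per the submitters' processing notes, FastQC and Bowtie were used on mm9, with no versions stated. How clusters were called, at which thresholds and on which pool of libraries was not given in the sources used here. Per the file headers, the authors deposited for each cluster a height (a signal in whole numbers), a fold of that height (a ratio with no stated denominator) and the bases shared with a RefSeq region. The depth behind the heights is unknown.

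The 2865 lines (17 of the members) were reduced to distinct clusters, and starts were made 1-based. A GRCm38 RefSeq table gave current symbols (1088 transcripts by accession, 11 by name) and the number of protein-coding genes. Regions were assigned by the cluster's midpoint. Positions use the longest deposited 3' UTR interval, and span is the longest deposited transcript from start to end. No test was run, since 1 list stands for all libraries. Shares carry exact Clopper-Pearson 95% intervals. The members and the 15 gene lists were chosen with earlier results of these data known. All 7 members and all listed genes of the pathway lists could be named. Alternatives were taller clusters, joined clusters, fold for height, 1 value per gene, leaving out a gene, and other region and position rules. Position and region code was tested on simulated intervals. Cluster sequences were not used here. Python 3.11.15, pandas 2.3.3 and scipy 1.17.1 were used.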

Additional observations from a re-analysis of the deposited data

How the results depend on the processing

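Of 57 values under alternative settings, 43 kept their side of the list's median and moved by less than the spread over clusters, or stayed within 1.5 times the count. With fold in place of height, the members moved to the other side of the list's median: 7.48 for all 9 clusters, 8.21 for semaphorins and 7.33 for receptors, against 5.4 for the list. With only clusters taller than the list's median height, 2 clusters in 2 genes were left (Sema6a and Plxna2), by the construction of that setting; their median height was 37.5 (31 for the semaphorin and 44 for the receptor, which turned the receptor to the upper side of the median of 39 for such clusters). Counting family members with at least 2 clusters, or with a cluster taller than the median, gave 2 in place of 7. Joining clusters up to 50 bases apart changed none of the 9 clusters, and leaving out 1 gene at a time gave medians of 22 to 23 for all members, 22 to 23 for semaphorins and 20.5 to 27 for receptors. No paired analysis was possible because the list has no column for a single library, and for the same reason no replicate could be left out. Clusters lower than 18 were not in the list, so an unlisted family member is not shown to lack IMP2 contacts.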

Other observations

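The low implied denominators (height divided by fold) of the semaphorin and Eph receptor clusters also occurred in genes of vessels, meninges and glia, and not in the neuronal genes Dcx, Map2 and Sox11. These genes, and the limit of 3, were chosen after their values were seen. Of all 1828 clusters 89 (4.87%) had a value under 3, in 77 genes, 5 of them members (Sema3a, Sema6a, Sema6d, Epha3 and Epha5). The genes with most such clusters were Col4a2, a basement-membrane collagen (4 of 4 clusters), Col3a1, a fibrillar collagen of mesenchymal cells (3 of 3), and Gja1, the connexin of radial glia and astrocytes (3 of 3). The pericyte gene Rgs5 had 2 of 2. In the neuronal transcripts with many clusters the values lay higher, between 7.52 and 10.9 in Dcx (34 clusters), 7.33 and 9.02 in Map2 (12) and 6.55 and 11.9 in Sox11 (25). Among the members with no value under 3, Sema5a had 4.11 and Plxna2 3.76 and 6.59, the higher of which falls within the range of Sox11. Whether transcript abundance moves with the denominator was not tested, since no RNA level was analysed here.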
